A study of Mus musculus with 16 samples.

Results

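*Vmn1r55* to *Vmn1r185* are vomeronasal type 1 receptor genes (V1Rs) of mouse chromosome 7. They were chosen by name only, as every *Vmn1r* followed by a number from 55 to 185 without a pseudogene suffix, and 97 such genes stood in both the count and the RPKM (read counts scaled by gene length and library size) tables. They were 97 of 24340 genes in both tables and 97 of 202 *Vmn1r* genes. A further 6 names in the range (*Vmn1r93*, *Vmn1r130*, *Vmn1r142*, *Vmn1r143*, *Vmn1r149* and *Vmn1r163*) stood in the count tables alone, with 0 counts in every library.

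The study compared mice bred for high voluntary wheel running (High Runner, HR) with non-selected Control mice, all of Hsd:ICR background, 12 weeks old and from generation 88. RNA of the vomeronasal organ (VNO) was sequenced from 4 HR lines (lines 3, 6, 7 and 8) and 4 Control lines (lines 1, 2, 4 and 5), with 1 male and 1 female library for each line and 3 mice pooled per library. Selection was applied to lines, so the line was the replicate, and a pool gives no value for a single mouse. The 16 libraries held 15998552 to 70875276 counts on genes, with a median of 37366329. The authors accepted no mismatch and no read with more than 1 location in the genome, so a read shared by related receptors, or covering a base that differs from the reference mouse genome, was not counted.

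V1Rs are G protein-coupled receptors of the apical layer of the vomeronasal epithelium, where neurons carry the G protein subunit *Gnai2* and signal through the channel *Trpc2*. Each neuron is thought to choose a single receptor gene and a single allele of it, so the RNA level of a receptor in the whole organ follows how many neurons chose it and how much RNA each makes. In bulk RNA these contributions cannot be told apart. Known V1R ligands are small molecules such as steroids of urine, and *Vmn1r85* and *Vmn1r89* (older names *V1rj3* and *V1rj2*) are receptors of sulfated oestrogens.

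The tissue carried the markers of vomeronasal neurons in every library. *Omp*, which marks mature sensory neurons, ranged from 1265 to 2600.0 CPM (counts scaled to library size with TMM factors) and *Gnai2* from 715 to 1539 CPM. *Trpc2* was listed at 0 counts in every library but at 259 to 417 RPKM, so the count and RPKM tables did not treat every gene alike. *Gnao1*, a marker of the basal neurons, was also present at 304 to 511 CPM. Other cells contributed unequally, and the summed level of the gland genes *Lcn3*, *Lcn4* and *Aqp5* ran from 291 to 42647 CPM over libraries.

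The members lie in 5 stretches of chromosome 7 separated by more than 1 Mb (GRCm38, positions of genes from GENCODE M21). The first holds *Vmn1r55* to *Vmn1r65* at 5129291 to 6011010 with 11 members. The second holds *Vmn1r66* to *Vmn1r89* at 10272991 to 13220657 with 24 members. *Vmn1r90* stands alone at 14555474 to 14563506. The fourth and longest, at 20099680 to 24063554, runs from *Vmn1r91* to *Vmn1r183* with 59 members, and *Vmn1r184* and *Vmn1r185* lie at 26260334 to 26618464. The annotation calls all of them protein coding.

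Reads that fit more than 1 member alike were not counted. Coding sequences of 3 pairs and 1 group show how alike members can be. They are from GENCODE M21, read 5′ to 3′ on the coding strand. Each window of 120 bases is, within the pair, the stretch with the most differences, and capitals mark bases that differ from the partner. *Vmn1r68* and *Vmn1r69* (chr7:10527216-10527335 and chr7:10579849-10579968, both on the minus strand) differ at 19 bases here and are 93.0% identical over their coding sequence.
Vmn1r68: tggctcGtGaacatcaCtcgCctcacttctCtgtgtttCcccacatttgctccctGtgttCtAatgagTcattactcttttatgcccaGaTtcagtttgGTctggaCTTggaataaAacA
Vmn1r69: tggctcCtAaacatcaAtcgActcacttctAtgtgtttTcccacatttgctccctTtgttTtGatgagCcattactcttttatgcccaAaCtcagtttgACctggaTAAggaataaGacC

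*Vmn1r184* (chr7:26267207-26267326, plus strand) and *Vmn1r185* (chr7:26611580-26611699, minus strand) differ at 12 bases of the window and are 92.3% identical.
Vmn1r184: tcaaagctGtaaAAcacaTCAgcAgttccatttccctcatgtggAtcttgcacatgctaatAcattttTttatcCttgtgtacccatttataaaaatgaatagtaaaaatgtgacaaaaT
Vmn1r185: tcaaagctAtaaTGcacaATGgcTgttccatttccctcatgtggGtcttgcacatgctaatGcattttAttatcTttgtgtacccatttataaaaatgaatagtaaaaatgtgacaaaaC

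*Vmn1r86* (chr7:13102389-13102508, minus strand) and *Vmn1r88* (chr7:13178158-13178277, plus strand) differ at 23 bases of the window and are 93.2% identical.
Vmn1r86: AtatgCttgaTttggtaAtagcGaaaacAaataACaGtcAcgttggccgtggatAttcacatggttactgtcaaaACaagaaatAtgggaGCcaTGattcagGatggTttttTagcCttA
Vmn1r88: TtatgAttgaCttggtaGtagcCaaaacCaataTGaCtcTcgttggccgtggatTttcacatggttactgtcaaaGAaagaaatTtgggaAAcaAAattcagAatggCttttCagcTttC

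The group comes from the fourth stretch, where many members are nearly the same. *Vmn1r137* (chr7:21994587-21994706) and *Vmn1r165* (chr7:23217332-23217451), both on the plus strand, are identical over all 924 coding bases. *Vmn1r125* (chr7:21272179-21272298, plus strand) is 97.7% and *Vmn1r159* (chr7:22843486-22843605, minus strand) 94.2% identical to *Vmn1r137*. The first 120 coding bases are shown, with capitals at bases that differ from *Vmn1r137*.
Vmn1r137: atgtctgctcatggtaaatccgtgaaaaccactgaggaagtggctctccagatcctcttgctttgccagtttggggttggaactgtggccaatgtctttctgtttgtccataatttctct
Vmn1r165: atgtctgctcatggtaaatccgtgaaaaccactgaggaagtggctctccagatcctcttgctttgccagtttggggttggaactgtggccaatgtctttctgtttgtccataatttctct
Vmn1r125: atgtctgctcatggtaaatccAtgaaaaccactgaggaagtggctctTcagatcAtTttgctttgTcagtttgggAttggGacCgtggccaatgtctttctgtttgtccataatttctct
Vmn1r159: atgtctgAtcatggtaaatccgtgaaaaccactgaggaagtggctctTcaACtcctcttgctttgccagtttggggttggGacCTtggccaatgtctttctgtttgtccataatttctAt

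Over all 4656 pairs of members the median identity of the coding sequences was 68.7%. In 7 pairs, made of 11 members, the coding sequences were the same, all of them between *Vmn1r100* and *Vmn1r166*.

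A few receptors held most of the summed RPKM of the members. Reads shared by related receptors were not counted, so the order and shares below rest on reads that could be placed. They are not shares of all RNA of the members. *Vmn1r89* was the most abundant, with a lowest, median and highest RPKM over the 16 libraries of 154.8, 189.4 and 238.5. *Vmn1r184* followed with 61.9, 88.5 and 126, and *Vmn1r85* with 60.5, 85.6 and 152. The libraries of *Vmn1r89* did not overlap with those of either, whereas *Vmn1r184* and *Vmn1r85* overlapped over most of their ranges, with means of 91.0 ± 14.3 and 90.0 ± 25.0 (SD over 16 libraries). Both receptors of sulfated oestrogens were therefore among the 3 highest members, and those 3 made up 38.1% of the summed mean RPKM of the 97.

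Next came *Vmn1r84* with a mean of 47.8 ± 8.42 RPKM and *Vmn1r86* with 46.2 ± 9.18, which did not differ beyond their spread. *Vmn1r83* (32.9 ± 12.4), *Vmn1r90* (32.1 ± 9.63), *Vmn1r171* (30.6 ± 5.17), *Vmn1r67* (24.5 ± 9.55) and *Vmn1r82* (22.7 ± 5.71) completed the first 10, and each neighbouring pair in this order overlapped. The first 10 held 62.1% of the summed mean RPKM. In all, 26 members had a mean above 10 RPKM, 27 lay between 1 and 10, 13 lay below 1 but above 0, and 31 were listed at 0 in every library.

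The lowest members that were not at 0 throughout were *Vmn1r123* (mean 0.0409 RPKM), *Vmn1r158* (0.0163), *Vmn1r125* (0.00943), *Vmn1r129* (0.00343) and *Vmn1r132* (0.000538). All 5 belong to the fourth stretch. The median of the mean levels was 1.97 RPKM over the 97 members and 9.92 RPKM over the 48 members with at least 80% of their sequence unique, as described next.

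Nearly all counts lay on members with much unique sequence. The share of a member's 75-nucleotide transcript words that occur in no other annotated gene was under 50% in 40 members, of which 28 had 0 counts in every library and 3 had enough counts to be tested. Of the 57 members with a share of 50% or more, 55 were tested. Only 2 of these 57, *Vmn1r113* and *Vmn1r124*, lay in the long run from *Vmn1r94* to *Vmn1r166*. Inside that run the median share was 6.31%, 28 of 42 members had 0 counts throughout, no member exceeded 53 counts in any library, and 4 were tested. Outside it the median share was 95.7% and 54 of 55 members were tested. Over all libraries, the 42 members of the run held 1436 of 573215 counts.

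**Figure D1:**
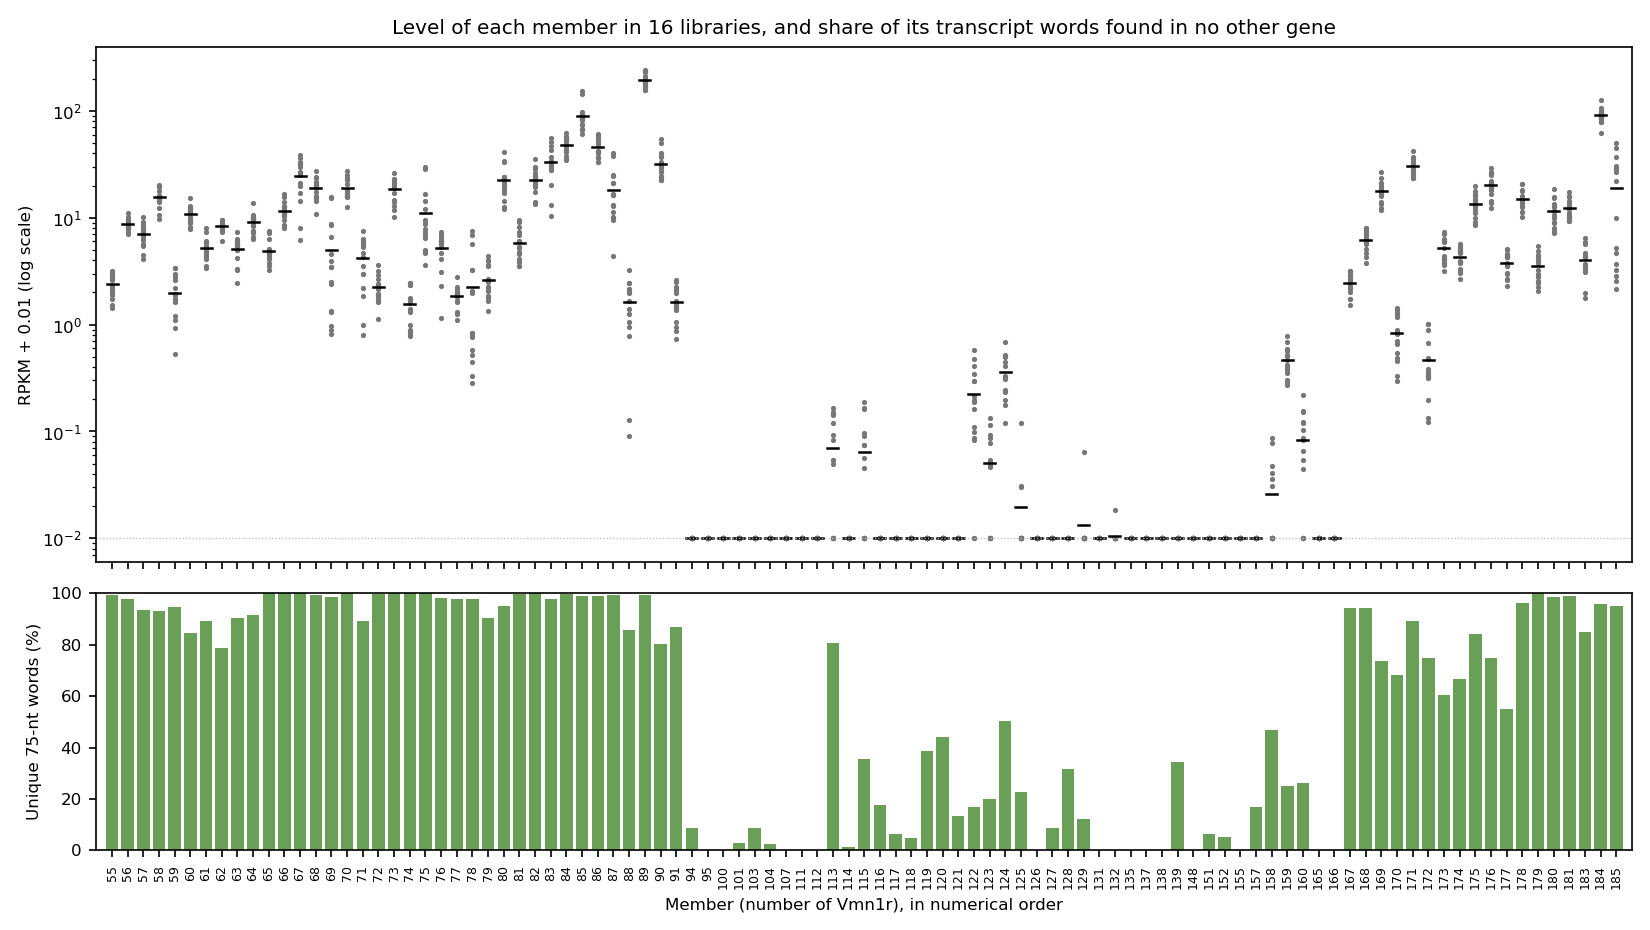
RPKM of the 97 members in numerical order (top, points are the 16 libraries and bars their mean, log scale with 0.01 added) and the percentage of their 75-nucleotide transcript words found in no other gene (bottom). From *Vmn1r94* to *Vmn1r166* most points lie at 0 and the median share of unique words is 6.31%.

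*Vmn1r137* and *Vmn1r165*, shown above, had no unique word and 0 counts. *Vmn1r125*, with 22.7% of its words unique, had a lowest, median and highest count of 2, 12.5 and 53, and *Vmn1r159*, with 25.1%, had 5, 12.5 and 24. *Vmn1r124*, with 50.4%, had 2, 8.50 and 26. A count of 0 for a member without unique words does not show that the gene was silent, because a read from it could not be placed. Counts did not always follow the share. *Vmn1r113*, with 80.5% unique words, had at most 7 counts, and *Vmn1r119*, with 38.6%, had 0. *Vmn1r121*, with 13.3%, had 8 to 42. Of the members with 0 counts throughout, 14 had no unique word. The part of unique sequence in the low counts was not tested.

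The count and RPKM tables differed in both directions. *Vmn1r90*, which lies within the annotated gene *Nlrp5-ps* on the same strand, had 0 counts in every library but 22.3 to 54.1 RPKM, and *Nlrp5-ps* had 267 to 1787 counts. *Vmn1r121* had 8 to 42 counts but was listed at 0 RPKM in every library, and *Vmn1r125* had at most 0.110 RPKM. *Vmn1r123* had 0 to 18 counts and at most 0.124 RPKM, and *Vmn1r160* 0 to 16 counts and at most 0.210 RPKM, whereas *Vmn1r159* reached 0.264 to 0.768 RPKM with 5 to 24 counts. The tables thus disagreed for several members, mainly with few counts, and the level of *Vmn1r90* and the order of the lowest members given above rest on the RPKM table alone. *Vmn1r170* departed from the scaling of its table by up to 0.893 on the log2 scale, and no other member with a median of 20 counts or more and RPKM above 0 in each library departed by more than 0.457.

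**Figure D2:**
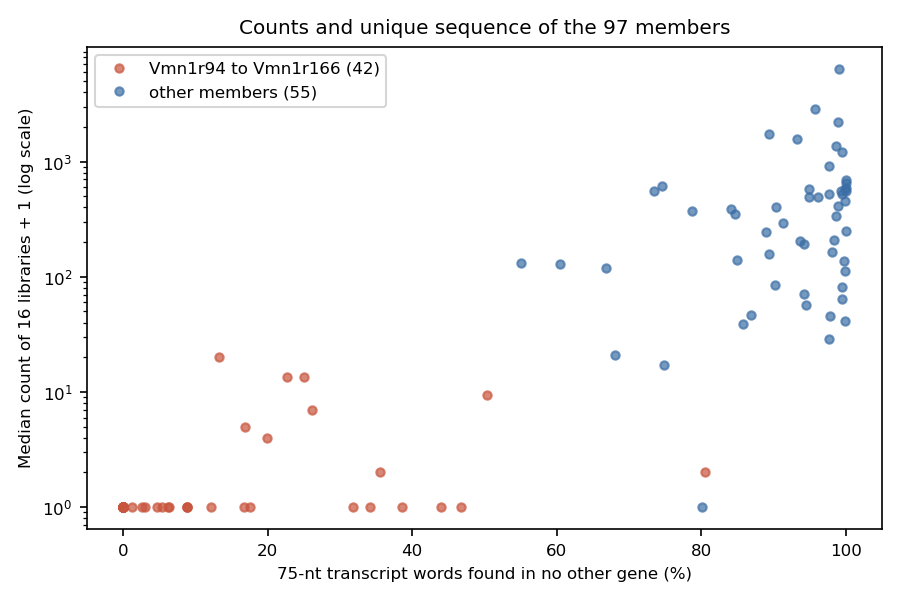
Median count of the 16 libraries plus 1 (log scale) against the percentage of unique 75-nucleotide words, with a point for each of the 97 members. The 42 members from *Vmn1r94* to *Vmn1r166* lie mainly at a median of 0 counts, and the others mainly at shares above 50%.

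The sum of all members differed by less than the spread between lines. It was 896 ± 81.6 CPM in Control and 899 ± 108 CPM in HR lines (SD, n = 4 lines), with libraries from 784 to 1033 and from 743 to 1084. As a share of all *Vmn1r* counts it was 35.6 ± 2.22% in Control and 35.9 ± 1.90% in HR lines. In RPKM the sum was 991 ± 88.3 in Control and 982 ± 109 in HR lines. *Omp* gave 1994 ± 302 CPM in Control and 2050.2 ± 403 CPM in HR lines.

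Whether selection for wheel running changed single receptors was asked with edgeR's quasi-likelihood test across all genes, with sex in the model. It took the male and female library of a line as independent, so SE and *p* can be too small and intervals too narrow. Of the 97 members, 58 passed the filter on low counts and 39 did not, 29 of them with 0 counts throughout and 10 with at most 33 counts in any library. None of the 58 members differed between HR and Control lines at an adjusted *p* under 0.05, against 0.0239% (4) of 16757 genes tested. At an unadjusted *p* under 0.05 there were 4 members, against 3.43% of all genes. DESeq2 also called 0 members, against 0.179% (30) of all genes, with 4 at an unadjusted *p* under 0.05. Treating line as a random effect in limma-voom (a replicate block) gave 0 calls, with 2 members at an unadjusted *p* under 0.05, and edgeR on the 8 line sums gave 0 and 1. Both of these fits called 0 of all genes, so their counts of 0 say nothing particular about the members.

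The fold changes were small for most members and uncertain for those that varied between lines. The log2 fold change of HR over Control ranged from -0.74 to 0.39, with a median of 0.01 over the 58 members and 0.00 over all genes tested. It was above 0 in 30 members and below 0 in 28. For *Vmn1r89* the difference was 0.01 (95% interval -0.18 to 0.20), and for *Vmn1r84* and *Vmn1r184* it was -0.13 and 0.15, with SE of 0.11 and 0.10. For *Vmn1r85*, the other receptor of sulfated oestrogens, it was 0.21 (-0.16 to 0.58). It was -0.08 without line 7, where *Vmn1r85* was highest. For *Vmn1r185* the interval was -1.70 to 1.36, so a difference of over 2-fold in either direction was within the error.

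*Vmn1r68* had the smallest *p* among the members. Its levels in the female and male libraries were 19.4 and 16.5 CPM in line 1, 20 and 18.4 in line 2, 17.9 and 17.1 in line 4, and 22.2 and 17.2 in line 5. In the HR lines they were 15.1 and 13.7 in line 3, 9.44 and 13 in line 6, 16.3 and 12.9 in line 7, and 13.2 and 18.5 CPM in line 8. The means of the Control lines ran from 17.5 to 19.7 CPM and those of the HR lines from 11.2 to 15.9 CPM, so the line means did not overlap. The male library of line 8 nevertheless reached the level of the male Control libraries, at 18.5 CPM against 16.5 to 18.4 CPM. In RPKM it was at 20.4 against 19.0 to 21.2. The log2 fold change was -0.40 (SE 0.11, 95% interval -0.64 to -0.16), with an unadjusted edgeR *p* of 0.00258 and an adjusted *p* of 0.718. With line as a random effect in limma-voom it was -0.39 (SE 0.15, unadjusted *p* = 0.0193). On the line sums edgeR gave -0.40 (SE 0.11, unadjusted *p* = 0.00691). The adjusted *p* was 0.151 with DESeq2 and 0.656 with limma on log2(RPKM + 1). The log2 fold change was -0.55 in female libraries alone and -0.26 in male libraries alone.

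Line means in CPM did not overlap between HR and Control lines in 2 of 58 members, against 0.824% of all genes tested. The other member was *Vmn1r55*, with line means of 1.61 to 1.95 CPM in Control and 2.00 to 2.27 CPM in HR lines. Its log2 fold change was 0.24 (SE 0.15), with an edgeR adjusted *p* of 1. Its single libraries overlapped, at 1.34 to 2.42 CPM in Control and 1.49 to 2.82 CPM in HR lines. In RPKM its line means overlapped as well. Female and male values were 3.08 and 2.10 RPKM in Control line 5, and 1.96 and 3.08 RPKM in HR line 7. The remaining members with an unadjusted *p* under 0.05 were *Vmn1r73* (-0.40, SE 0.16), *Vmn1r58* (0.30, SE 0.13) and *Vmn1r64* (-0.27, SE 0.13). Next came *Vmn1r61* (0.24), *Vmn1r75* (-0.74), *Vmn1r60* (0.20), *Vmn1r81* (-0.34) and *Vmn1r174* (0.25), none of which passed the test. Single lines weighed on several of these estimates. Without line 4 *Vmn1r75* was at -0.07, without line 2 *Vmn1r81* was at -0.13, and without line 5 *Vmn1r58* was at 0.17. *Vmn1r73* was at -0.26 without line 6, and *Vmn1r174* at 0.16 without line 4, whereas *Vmn1r60* was at 0.36 without line 2.

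**Figure D3:**
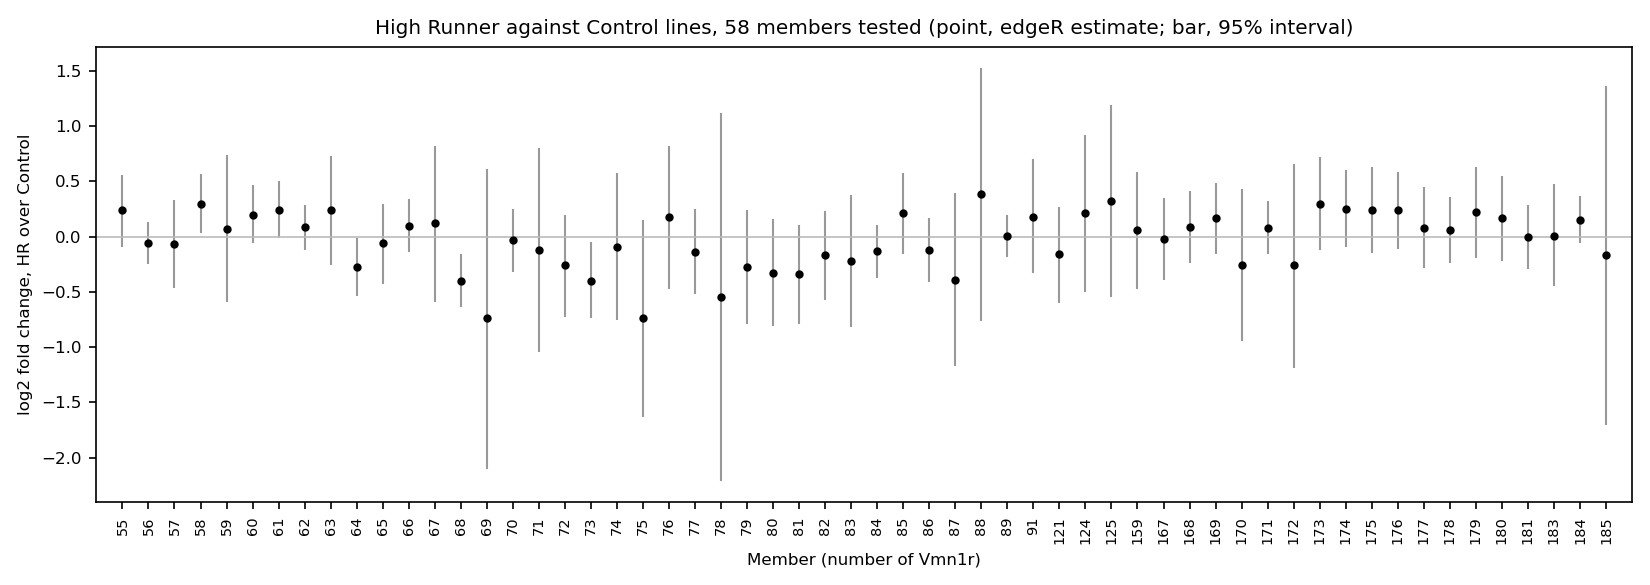
Log2 fold change of HR over Control lines for the 58 members tested, in numerical order, with the edgeR estimate as a point and its 95% interval as a bar. The fit took the male and female library of a line as independent. Estimates run from -0.74 to 0.39, and the widest bars belong to members that differ between lines, such as *Vmn1r69*, *Vmn1r78* and *Vmn1r185*.

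The direction of the estimates varied along the chromosome, with 8569 of all 16757 genes tested estimated higher in HR lines. It was 7 of 11 members in the first stretch, 2 of 6 from *Vmn1r66* to *Vmn1r71* and 3 of 5 from *Vmn1r85* to *Vmn1r89*. Of the 11 members of the *V1rg* group by older name (*Vmn1r72* to *Vmn1r84*, except *Vmn1r77* and *Vmn1r79*), 10 were estimated lower in HR lines, with a median log2 fold change of -0.26, and 0 were called. Without line 2, a Control line with high levels of several of them, 7 of 11 were estimated lower with a median of -0.08. In the last part of the fourth stretch, *Vmn1r167* to *Vmn1r183*, 12 of 16 were estimated higher in HR lines, with a median of 0.08. These members lie side by side and share libraries, so their directions are not independent, and whether the groups differ in direction was not tested.

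No gene of the marker lists was called between HR and Control lines, against 0.0239% (4) of 16757 genes tested. With so few calls over all genes, a count of 0 in a short list does not show that cell content was alike. None of the 5 genes of the apical layer (*Gnai2*, *Meis2*, *Nrp2*, *Pde4a*, *Bcl11b*) was called, and their log2 fold changes ran from -0.11 to -0.01. None of 12 tested genes of signal transduction and receptor transport was called, with *Rtp1*, which aids transport of receptors to the membrane, at -0.11 (SE 0.12) and the related *Rtp2* at 0.06 (SE 0.17). All 5 genes of immature neurons and progenitors had estimates below 0, with a median of -0.34 and 0 called. The 3 genes of multiciliated cells had a median of -0.59 with 0 called, and their summed level ran from 17 to 126 CPM in Control and from 15.0 to 72 CPM in HR libraries. The lists of basal neurons, main olfactory neurons, glands, ensheathing glia, endothelium, blood and immune cells, bone and cartilage, and muscle also held 0 called genes. Their median log2 fold changes ran from -0.38 (endothelium) to 0.47 (muscle). The haemoglobin genes *Hbb-bs* and *Hba-a1* were listed at 0 counts. The part of other cells in the members' values was not tested.

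Differences between lines of the same linetype were asked in a model with a level for each line, in which both libraries of a line, male and female, served as its replicates. Reads with a mismatch to the reference were not counted, so the value of a line also depends on its sequence. The part of sequence in the line differences was not tested. Here 28 of 58 members (48.3%) were called at an adjusted *p* under 0.05, against 28.3% (4739) of 16757 genes. The other *Vmn1r* genes were called at 72.9% (35 of 48 tested, *Vmn1r4* to *Vmn1r54*), 85.3% (29 of 34, *Vmn1r186* to *Vmn1r223*) and 78.6% (11 of 14, from *Vmn1r224* on). Whether these shares differ was not tested. With the library size taken from all *Vmn1r* counts, which sets each member against the other V1Rs, 32 of 58 members were called, against 50.8% (8510) of all genes.

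By position, in the second stretch, *Vmn1r66* to *Vmn1r89*, 18 of 24 were called. In the first stretch it was 3 of 11 (*Vmn1r57*, *Vmn1r58* and *Vmn1r65*), and among the 16 members from *Vmn1r167* to *Vmn1r183* it was 3 (*Vmn1r171*, *Vmn1r172* and *Vmn1r173*). The remaining calls were *Vmn1r91*, *Vmn1r124*, *Vmn1r125* and *Vmn1r185*. By older name, 9 of 11 *V1rg* members and 4 of 5 *V1re* members were called, and 4 of 17 *V1rd* members. Whether these shares differ was not tested. Of the 46 tested members with at least 80% unique words, 24 were called, and of the other 12 members 4 were called.

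**Figure D4:**
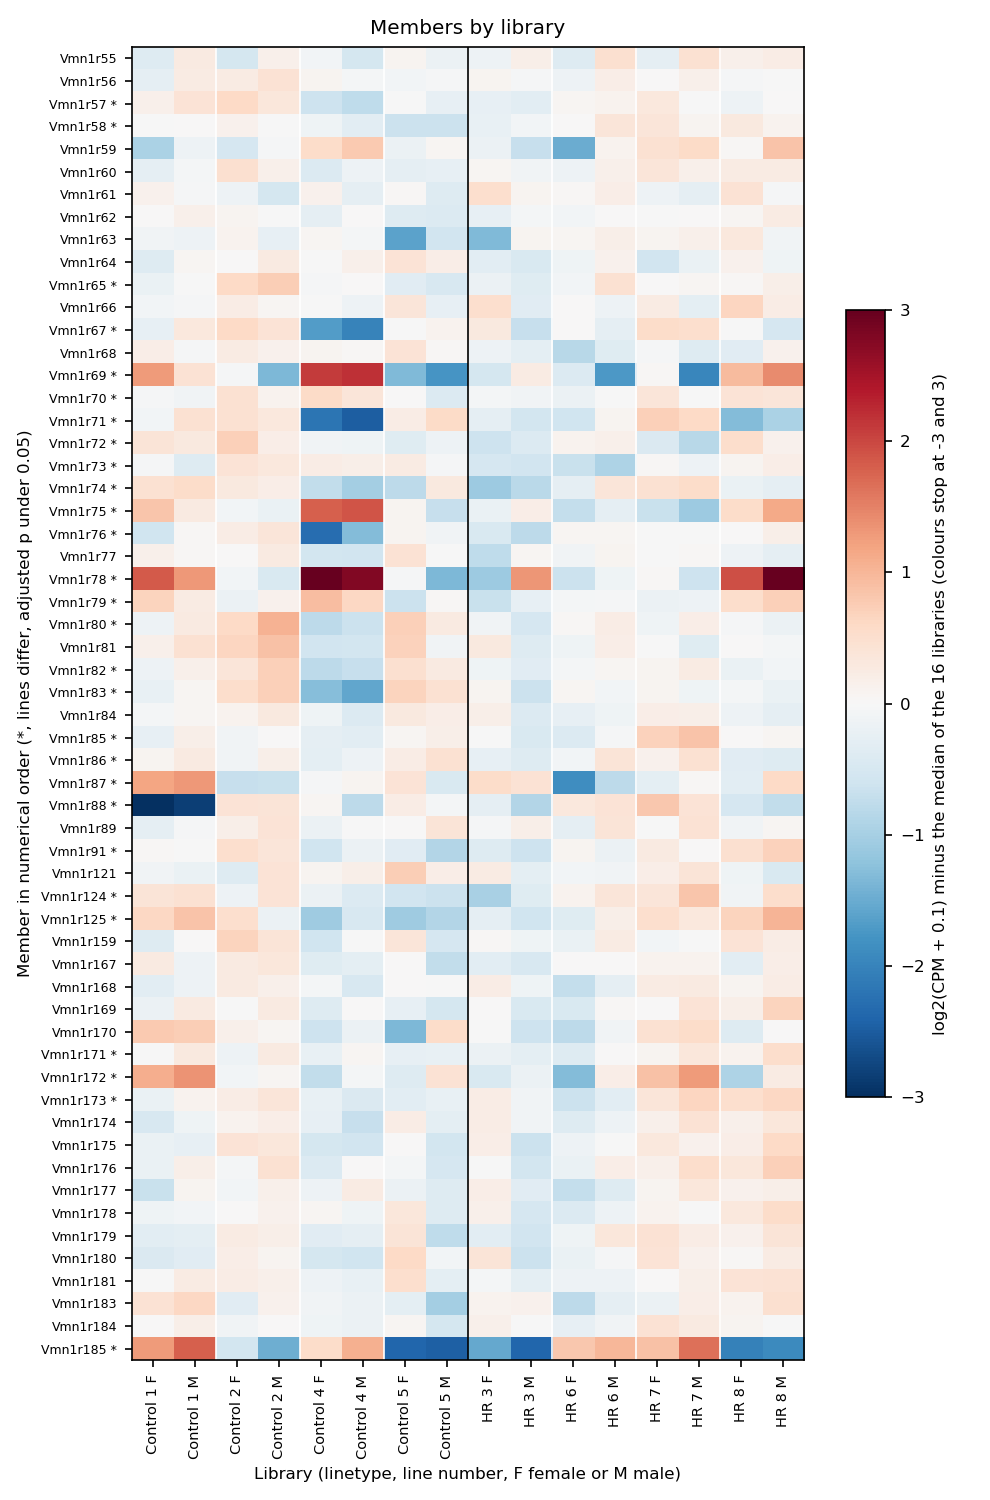
Level of the 58 tested members in the 16 libraries as log2(CPM + 0.1) minus the median of the member, with Control lines on the left, HR lines on the right, and both sexes of each line side by side. Members marked with a star differ between lines. Dark cells include those of *Vmn1r69*, *Vmn1r71*, *Vmn1r78*, *Vmn1r88* and *Vmn1r185*, where both libraries of a line go together.

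*Vmn1r185* had the smallest *p* between lines (adjusted *p* = 2.11e-04, edgeR) and fell into high and low lines in both linetypes. In Control lines its female and male levels were 31.0 and 44.5 CPM in line 1, 8.60 and 4.54 in line 2, 18.8 and 26.8 in line 4, and 2.36 and 2.24 in line 5. In HR lines they were 4.30 and 2.36 CPM in line 3, 22.5 and 25.3 in line 6, 23.5 and 40.2 in line 7, and 3.07 and 3.29 in line 8. Lines 1, 4, 6 and 7 were high and lines 2, 5, 3 and 8 low in both sexes, with no library of one set reaching into the other. The highest line mean was 16.4 times the lowest. *Vmn1r184*, its closest relative, ran from 65.9 to 96.6 CPM in line means with an adjusted *p* of 0.138.

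*Vmn1r69* and *Vmn1r68* formed a like pair. *Vmn1r69* was at 24.5 and 26.1 CPM in the female and male library of Control line 4, at 13.7 and 7.57 in line 1, at 5.46 and 2.13 in line 2, and at 2.17 and 1.58 in line 5. In HR lines it was at 10.9 and 15.2 CPM in line 8, 3.85 and 6.64 in line 3, 4.23 and 1.64 in line 6, and 5.77 and 1.36 in line 7. Line 4 stood above all others in both sexes, with line 8 next by mean, and the line test gave an adjusted *p* of 0.00741. *Vmn1r68* gave an adjusted *p* of 0.473, with line means from 11.2 to 19.7 CPM.

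*Vmn1r88* had almost no counts in a single line. In Control line 1 it had 0.0694 CPM in the female and 0.128 CPM in the male library, against medians of 1.69 and 1.17 CPM over the 8 libraries of each sex. Means of the other lines ran from 0.965 to 2.40 CPM, and the adjusted *p* was 6.92e-04. *Vmn1r86*, 93.2% identical in its coding sequence, also differed between lines (adjusted *p* = 0.00979), but only from 31.9 to 51.9 CPM, with 46.3 CPM in line 1. Whether the members of a pair differ in their spread over lines was not tested.

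**Figure D5:**
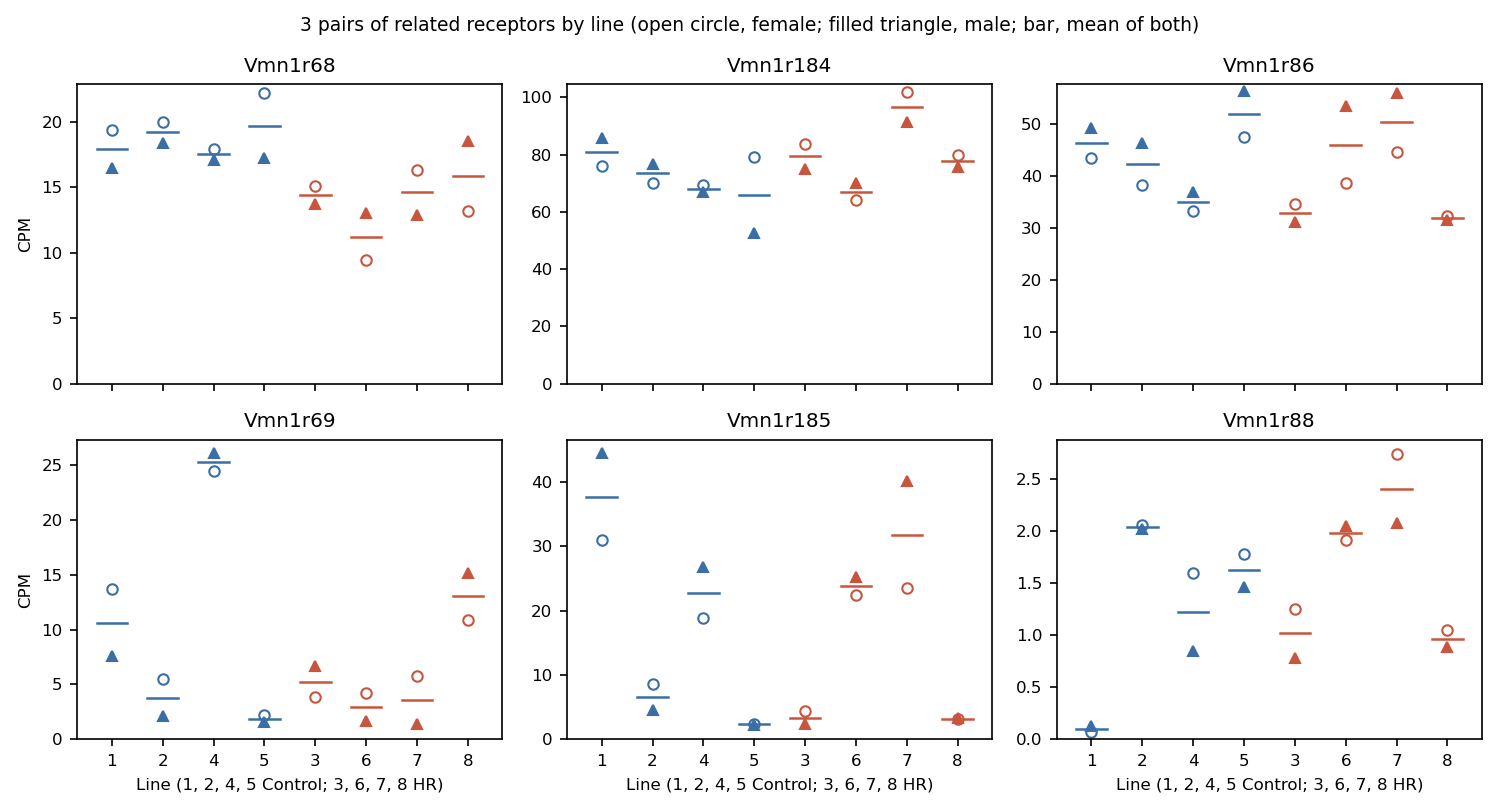
CPM by line for *Vmn1r68* and *Vmn1r69*, *Vmn1r184* and *Vmn1r185*, and *Vmn1r86* and *Vmn1r88* (open circles, female libraries; filled triangles, male libraries; bars, their mean; Control lines in blue and HR lines in red). The lower member of each pair ranges more widely over lines than the upper, 16.4-fold for *Vmn1r185* and 13.5-fold for *Vmn1r69*, and *Vmn1r88* is near 0 in line 1.

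A line was called low for a member if both its libraries lay under 1/4 of the median of their sex, and high if both lay over 4 times that median. Of 52 members with at least 20 median counts in each sex, 3 had a low line, against 0.904% of all genes scored. These were *Vmn1r71* in line 4, *Vmn1r88* in line 1, and *Vmn1r185* in lines 5 and 8. Whether bases that differ from the reference lowered these counts was not tested. Of 57 members with 20 counts in both libraries of at least 1 line, 2 had a high line, against 0.787% of all genes scored. These were *Vmn1r69* in line 4 and *Vmn1r78* in lines 4 and 8. The low and high lines were Control lines 1, 4 and 5 and HR line 8, and line 4 was involved in 3 of the 5 members.

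*Vmn1r71* was at 1.85 and 1.52 CPM in line 4, against 10.2 to 11.8 CPM in the means of the other Control lines and 4.03 to 14.0 CPM in HR lines (adjusted *p* = 4.43e-04). *Vmn1r78* was at 6.35 and 5.07 CPM in line 4 and at 2.80 and 5.88 CPM in line 8. Its means were 2.18 CPM in line 1 and 0.417 to 1.03 CPM in the other 5 lines (adjusted *p* = 0.00730). *Vmn1r75* followed a similar course, with means of 23.3 CPM in line 4, 12 in line 8, 9.66 in line 1 and 3.50 to 6.52 CPM elsewhere (adjusted *p* = 0.00233).

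Lines 1, 4 and 8 held the 3 highest means in 4 called members, *Vmn1r69*, *Vmn1r75*, *Vmn1r78* and *Vmn1r79*, a grouping made after the values were seen. *Vmn1r69* lies at 10578930 to 10613659 and *Vmn1r75* at 11874630 to 11884307. *Vmn1r78* lies at 12150257 to 12159959. Other members of the second stretch, between these positions and on either side of them, were low in line 4. Between them, *Vmn1r76*, at 11923523 to 11938213, was at 1.39 CPM in line 4 against 3.13 to 5.90 CPM elsewhere (edgeR adjusted *p* = 0.00939). *Vmn1r71*, given above, also lies between them. *Vmn1r67* was at 6.11 CPM in line 4 against 18.6 to 31.6 CPM elsewhere (adjusted *p* = 0.00490), and *Vmn1r83* was at 10 CPM against 22.8 to 41.3 CPM (adjusted *p* = 0.00141). *Vmn1r82* was lowest in line 4 as well, at 10.8 against 15.4 to 26.5 CPM (adjusted *p* = 0.00360), so within this stretch some receptors were high and others low in the same libraries.

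Among the most abundant receptors, *Vmn1r89* ran from 147 to 200 CPM in line means with an adjusted *p* of 0.0608, and *Vmn1r85* ran from 55.9 to 74.4 CPM in 7 lines and reached 117 CPM in HR line 7 (adjusted *p* = 0.0102). *Vmn1r73* differed between lines with an adjusted *p* of 0.00304 over a narrower range, from 8.60 CPM in line 6 to 19.3 CPM in line 2.

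The highest line of a member was the same in both sexes in 24 of 58 members, and the lowest line in 19 of 58. Among the 28 called members these were 15 and 14. The line test took both sexes of a line as replicates, so its calls favour members whose sexes go together. No share over all genes is given for these counts. The line highest in both sexes was line 2 in 6 members, lines 1, 7 and 8 in 5 each, line 4 in 2, line 5 in 1, and lines 3 and 6 in 0. The line lowest in both sexes was line 4 in 8 members, line 5 in 5, lines 1 and 6 in 2 each, lines 2 and 3 in 1 each, and lines 7 and 8 in 0. *Omp* differed between lines too (adjusted *p* = 0.0479), as did *Gnai2* (adjusted *p* = 0.0228), and their part in the calls of single receptors was not tested.

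Sex was tested with linetype in the model, and each sex was deposited as a table of its own. None of the 58 members differed at an adjusted *p* under 0.05 (edgeR), against 0.185% (31) of all genes. At an unadjusted *p* under 0.05 there were 5 members, against 8.10% of all genes. DESeq2 called 1 member, against 1.10% (185) of all genes, and edgeR with line as a replicate block called 1, against 0.537% (90), *Vmn1r89* in both. *Vmn1r89* was lower in the female than in the male library in 8 of 8 lines, with a lowest, median and highest level of 135, 155 and 183 CPM in females and 159, 197 and 219.6 CPM in males. The log2 difference of females minus males was -0.32 (SE 0.09), with adjusted *p* of 0.238 in edgeR, 0.0466 in DESeq2 and 0.0478 with the replicate block.

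*Gnai2* was lower in females in 8 of 8 lines too, at -0.32 (SE 0.13, edgeR adjusted *p* = 0.540), and *Omp* in 6 of 8 at -0.17 (SE 0.13). With the replicate block *Gnai2* was at -0.32 (SE 0.07, adjusted *p* = 0.0809) and *Omp* at -0.18 (SE 0.08, adjusted *p* = 0.307). The part of neuron content in the difference of *Vmn1r89* was not tested. *Vmn1r66* was higher in females in 7 of 8 lines (0.36, SE 0.11) and *Vmn1r61* in 7 of 8 (0.28, SE 0.12), with adjusted *p* of 0.332 and 0.554. *Vmn1r171* was lower in females in 7 of 8 lines and *Vmn1r55* in 6 of 8, both with an unadjusted *p* under 0.05 and an adjusted *p* above 0.5. *Vmn1r172*, named after its values were seen, was the other member lower in females in 8 of 8 lines, at medians of 0.306 CPM in females and 0.535 CPM in males (-0.60, SE 0.44, adjusted *p* = 0.796, and 0.156 with the replicate block). For *Vmn1r85* the log2 difference was -0.12 (SE 0.17), with the female library lower in 6 of 8 lines.

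The interaction of sex and linetype was called in 0 members and 0% of all genes by edgeR, and in 0 members by DESeq2. At an unadjusted *p* under 0.05 it was found in 0 members, against 0.460% of all genes (0 by DESeq2), and the smallest values among members belonged to *Vmn1r68*, *Vmn1r66* and *Vmn1r55*.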

How the data were processed

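Single-end reads of 75 nucleotides from rRNA-depleted, directional libraries were aligned by the authors to GRCm38 (mm10) with STAR 2.6.1d, without mismatches or multiple locations, per the study's methods and the submitters' processing notes, which also name Cufflinks. The authors deposited, for each sex, raw read counts per gene and a table of RPKM, both without a log transform. The counting tool, the annotation and the use of strand in counting are not given in the sources used here, so reads of overlapping genes could be assigned differently in the 2 kinds of table. Whether the sexes were sequenced in separate runs is not given either, so sex and run cannot be told apart. Every column of values was used.

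Counts were tested in R 4.3.3 with the quasi-likelihood test of edgeR 4.0.16 (TMM, filterByExpr with a minimum count of 10 over the 4 groups of sex and linetype), which left 16757 genes. The models were sex plus linetype for HR against Control and for sex, with the product term for the interaction, and sex plus line for the 6 contrasts of lines within linetype. All tests were two-sided, and adjusted *p* are Benjamini-Hochberg values over all genes tested, with a threshold of 0.05. DESeq2 1.42.0 and limma 3.58.1 (voom with a random effect for line, and log2(RPKM + 1)) were alternatives, as were other scalings, no filter, single sexes and leaving out each line. The test functions were tested on simulated data, in which lines did not vary apart from the change that was set. Those data therefore do not show how the HR test behaves where lines vary. CPM are counts scaled to the library size with TMM factors, and intervals are 95%. Tables were handled in Python 3.11.15 with pandas 2.3.3 and Biopython 1.88.

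Male and female libraries of the same line number come from the same line of mice, so the line number pairs them. After group means were removed, their correlation over the genes tested was 0.298 to 0.704. Over the members it was 0.226 in HR line 3 and 0.715 to 0.911 in the other lines. Correlations between libraries of different lines are not given beside these. Within a group, the chi-square of any 2 libraries was at least 31.1 per degree of freedom, so none was a copy of another.

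Positions and transcripts come from GENCODE M21. Coding identity was computed from global alignments, and the shares of unique words from words of 75 nucleotides on either strand of all transcripts. Named members were the 10 highest and 5 lowest in RPKM, the 10 with the smallest *p* for HR against Control and between lines, the 3 for sex and for the interaction, members with a low or high line, *Vmn1r85* and *Vmn1r89*, and members with little unique sequence or 0 counts. The members, lists and tests were chosen with earlier results of these data known.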

Additional observations from a re-analysis of the deposited data

Results flagged for a closer look

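Among 52 sets of 4 line means (26 named members, Control and HR lines apart), 5 held a line far from the other 3 by Dixon's ratio of the gap to the range, at the 95% critical value, where chance flags about 1 set in 20. Some of these members were named because they differed between lines or had a low or high line, so the count of 5 cannot be set against that rate. In *Vmn1r71* Control line 4 was at 1.69 CPM and the others at 10.2 to 11.8 CPM (ratio 0.843). In *Vmn1r78* HR line 8 was at 4.34 CPM and the others at 0.488 to 1.03 CPM (ratio 0.860). In *Vmn1r67* HR line 7 was at 31.6 CPM and the others at 18.6 to 20.2 CPM (ratio 0.873). In *Vmn1r58* HR line 3 was at 34.8 CPM and the others at 44.2 to 45.1 CPM (ratio 0.913). In *Vmn1r60* Control line 2 was at 11.6 CPM and the others at 7.68 to 8.34 CPM (ratio 0.830).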

How the results depend on the processing

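The count of 0 members called between HR and Control lines was also found under the 19 alternatives run, including the replicate block, which gave 0. The block, the line sums and both single-sex fits called 0 of all genes, so they do not bear on the members, and the other 15 called 1 to 30 of all genes. Between lines 22 to 30 members were called when a line was left out (18.2 to 29.3% of all genes), 35 with DESeq2 (43.2%), 32 with all *Vmn1r* counts as library size (50.8%), 27 without the filter (20.7%) and 28 with RLE, all within 1.5 times the 28 reported. For sex, DESeq2 called 1 member and the replicate block with line in edgeR called 1, *Vmn1r89* in both, and for the interaction the replicate block called 0. The median level was 9.92 RPKM over members with at least 80% unique words, in place of 1.97 RPKM. With all *Vmn1r* counts as library size 2 members had a low line in place of 3, since *Vmn1r71* in line 4 no longer met the limit, and 2 had a high line. These alternatives for low and high lines, and summed RPKM in place of CPM, were chosen after seeing the data.

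Log2 fold changes of HR over Control were recomputed for the 10 members with the smallest *p*, *Vmn1r85* and *Vmn1r89*. The direction and side of the threshold were unchanged in 222 recomputed values and the direction turned in 6. *Vmn1r85* reached -0.08 to 0.32 when a line was left out, the negative value without line 7. *Vmn1r89* reached -0.07 to 0.09 when a line was left out, -0.02 with line sums and -0.04 in female libraries only. The cause was not tested. Of the 39 members that did not pass the filter on low counts, 10 were tested without it, and the 29 with 0 counts throughout could not be tested.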
